A study of Mus musculus with 16 samples.

Results

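Astrocytes and radial glia were followed through 32 genes whose transcripts are concentrated in these cells, out of 53801 genes in the count table. The genes were picked by symbol, each symbol matched 1 row, and all 32 were tested in every comparison. Cortex and striatum were taken from mice on postnatal day 10 (strain C57BL6/J-129sv) for RNA-seq. Trrap, a scaffold subunit of several histone acetyltransferase complexes, was to be deleted in the forebrain. The group called Trrap-FBΔ carried the genotype Trrap Fl/Fl with the transgene Camk2-Cre tg, and controls were Trrap Fl/+ with the same transgene, so that Cre was present in every animal and the controls, with 1 wild-type allele, were heterozygous for the deletion wherever Cre acted. Each tissue was sampled in 4 mice per genotype, with 16 libraries from 9 mice in all. The controls were mice 55, 58, 63 and 64 for the cortex and 58, 63, 64 and 65 for the striatum, and mice 57, 59, 60 and 61 gave both Trrap-FBΔ tissues. The study's methods direct the deletion to glutamatergic neurons of the forebrain, which are not the cells that these 32 genes mark, and they name a Camk2a-cre/ERT2 line, whereas the labels list no inducing agent. Sex was not balanced, with 2 females among 4 control cortices, 1 among 4 control striata and 3 among 4 mice of the Trrap-FBΔ group.

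Radial glia are the stem cells of the embryonic brain, and around birth many of them turn into astrocytes. In the first weeks after birth astrocytes divide locally, spread their processes through the tissue and switch on the proteins of the mature cell. These include uptake systems that clear glutamate and GABA from synapses, water and potassium channels at the end feet on blood vessels, and gap junctions that couple neighbouring astrocytes. Nes and Vim, intermediate filament genes of radial glia, are turned down on the way, while Gfap, the filament gene of many mature and of reactive astrocytes, is turned up.

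Between 28743866 and 48761429 reads were counted on genes per library, and the lowest count of any of the 32 genes in any library was 214 (Prodh). Values are given as CPM, counts scaled by TMM to a common library size over all 16 libraries, and the values of a group are listed in the order of its mouse numbers given above. Differences are log2 fold changes from edgeR's quasi-likelihood test, and a gene was called with a Benjamini-Hochberg adjusted p under 0.05 over all genes tested. By its transcript counts in whole tissue, Trrap did not separate the groups. Its cortical log2 fold change was -0.18 (adjusted p = 0.0826 in edgeR) and its striatal one -0.044 (adjusted p = 0.519), with overlapping groups in both tissues. These counts cover all cells of the tissue, Trrap protein and the deleted DNA were not analysed here, and the genotypes are those of the labels. The study itself reports an efficient deletion of Trrap in Trrap-FBΔ brains at this age, with western blots and qPCR. In bulk tissue, fewer cells of a type and less RNA per cell cannot be told apart. The control striatum of mouse 63 lay farthest from the other libraries of its group, with a median distance of 0.131 on the log2 scale against 0.0682 to 0.108 in the other 15 libraries, and it held the lowest value of its group for 17 of the 32 genes. The Trrap-FBΔ cortex of mouse 57 held the highest value of its group for 24 of the 32. The genotype counts of called members are given with and without these libraries. Counts of the other lists, and of groups that did not overlap, are given with all libraries only.

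Levels of different genes can be compared only per length of transcript, as CPM per kb of exon. On this scale Sparcl1, a secreted matrix protein, stood first in all 4 groups, with 572 in the control cortex and 655 in the control striatum. Slc1a2 and Glul, which encode the main glutamate transporter of astrocytes and the enzyme that turns glutamate into glutamine, followed in the control cortex with 263 and 248. Prodh, a mitochondrial enzyme of proline breakdown, stood last in all 4 groups, with 1.21 in the control cortex and 0.891 in the control striatum. The defining astrocyte genes were all present, from Slc1a3 at 88.1 and Aldoc at 105 to Aldh1l1 at 14.6 CPM per kb in the control cortex. The radial glia gene Nes stood at 4.89 and Vim at 10.9 CPM per kb. The summed level of the 32 genes was 10330 to 10780 CPM in control cortices and 10140 to 11350 CPM in Trrap-FBΔ cortices, and 9468 to 11500 and 9870 to 11050 CPM in the striata, so that it overlapped between the genotypes in both tissues. Slc1a2 and Sparcl1 weigh most in this sum, with means of 3450 and 1681 CPM in the control cortex and 2183 and 1923 CPM in the control striatum.

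**Figure D1:**
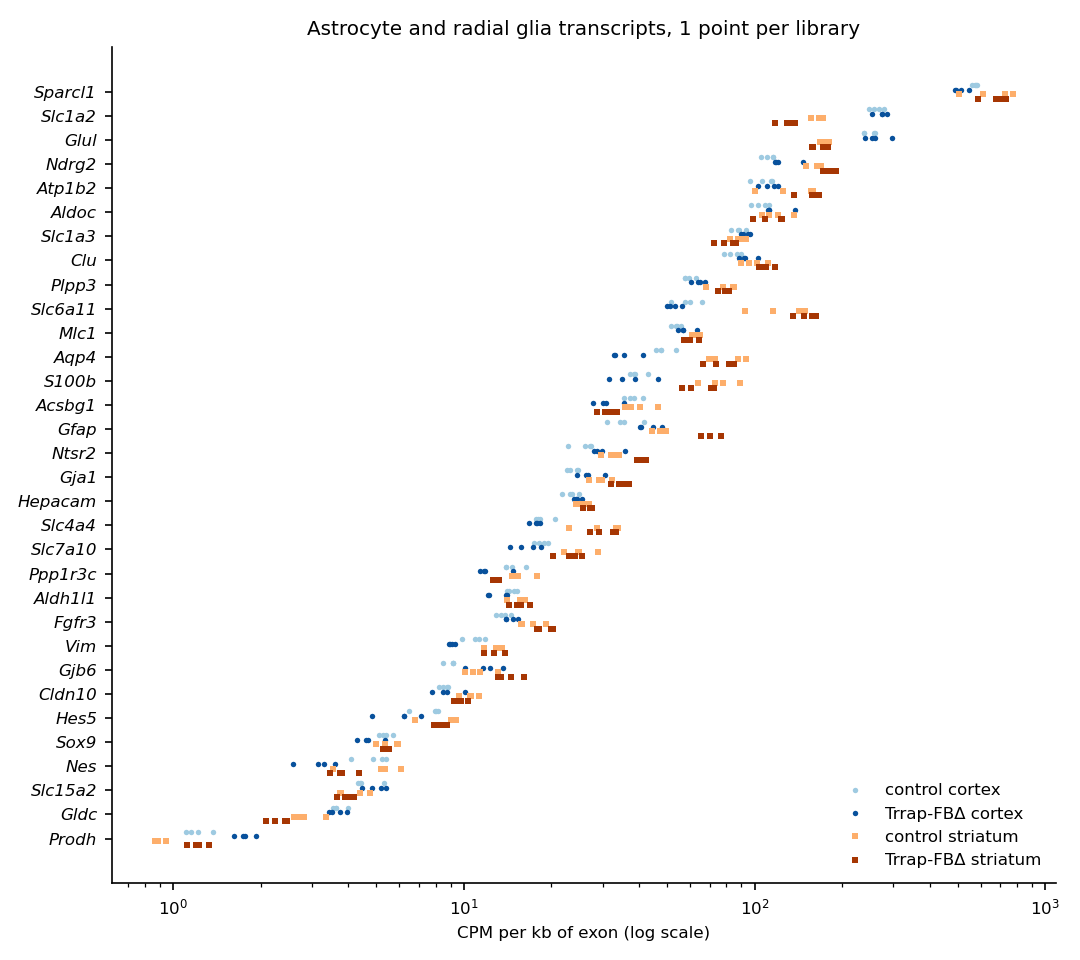
Level of each of the 32 transcripts in each of the 16 libraries, as CPM per kb of exon on a log axis, with genes ordered by their mean in the control cortex. Blue circles are cortices and orange squares striata, light for controls and dark for Trrap-FBΔ, and the levels run from Prodh, at 1.21 in the control cortex, to Sparcl1 at 572.

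Trrap-FBΔ mice did not show a common shift of the 32 genes in either tissue. In the cortex 12 were called, 5 higher and 7 lower, which is 37.5% of the members beside 33.3% of all genes tested (15.7% higher and 17.6% lower). Their median log2 fold change was 0.056, against 0.001 over all genes tested. In the striatum 9 were called, 5 higher and 4 lower, beside 30.2% of all genes (14.4% higher and 15.8% lower), with a median of -0.027 against -0.0055. Neither share was far from its background. The changes were small, since only Nes in the cortex passed a fold change of 1.5 in size, and 8 members in the cortex and 10 in the striatum passed 1.2. The groups did not overlap for 9 members in each tissue, beside 32.1% of all genes in the cortex and 31.5% in the striatum. Without the Trrap-FBΔ cortex of mouse 57 the cortical count was 12 again, but with 3 higher and 9 lower, and without the control striatum of mouse 63 the striatal count was 10, with 5 each way. The cortical count depended on other single libraries as well, with 6 members called without the control of mouse 64, 7 without the Trrap-FBΔ mouse 59 and 8 without the control of mouse 55. Upper-quartile scaling called 6 cortical members higher and 4 lower, in place of 5 and 7.

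Read gene by gene, the called members fell into a few sets. Gfap, Gja1, Gjb6, Ntsr2 and Prodh were called higher in both tissues, and Acsbg1 and Ppp1r3c were called lower in both. Aqp4, Aldh1l1, Hes5, Nes and Vim were called lower in the cortex and not in the striatum, while Slc1a2 and Gldc were called lower in the striatum and not in the cortex. The other 18 members were called in neither tissue, and no member was called in opposite directions. The tissues share mice, so the calls in one are not independent of those in the other.

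**Figure D2:**
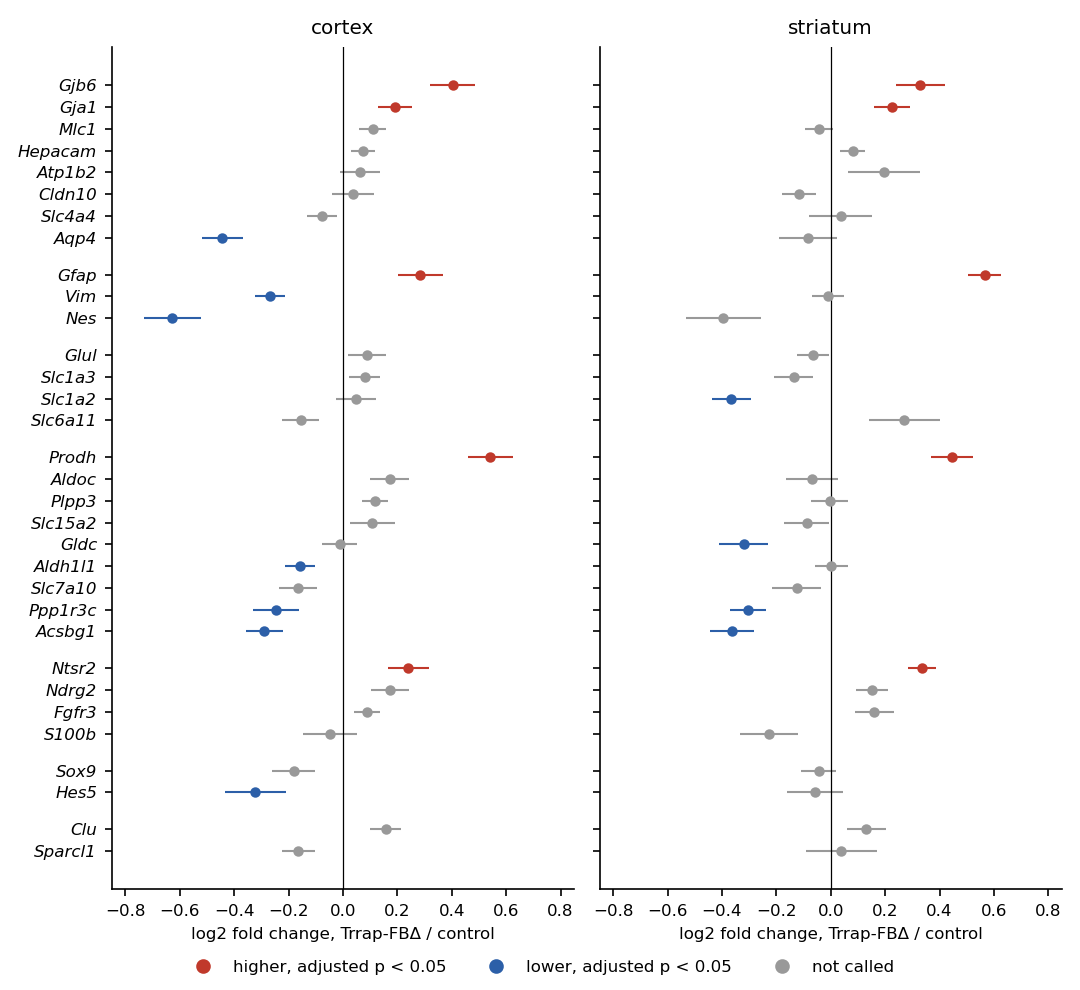
Log2 fold change of Trrap-FBΔ over control for the 32 genes in the cortex (left) and the striatum (right), with bars for 1 SE and genes grouped by role: water, ion and junction proteins, intermediate filaments, transmitter uptake, metabolism, receptors and signalling, transcription factors, and secreted proteins. Red marks 5 genes called higher in each tissue, and blue marks 7 called lower in the cortex and 4 in the striatum.

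The 3 intermediate filament genes moved in different directions. Gfap (chromosome 11 from 102887336 to 102900912 of GRCm38) stood at 176, 150.1, 132 and 145 CPM in the control cortices and at 203, 171, 171 and 188 CPM in the Trrap-FBΔ cortices. The control of mouse 55 lay inside the range of the mutants and the other 3 controls below it (log2 fold change 0.28, SE 0.082, adjusted p = 0.0206, edgeR). In the striatum Gfap stood at 200, 209.6, 187 and 206 CPM in controls and at 276, 297, 295 and 323 CPM in Trrap-FBΔ. Every mutant striatum lay above every control, with means of 201 ± 9.98 and 298 ± 19.6 (SD, n = 4 each), and this was the largest rise among the 32 genes in the striatum (log2 fold change 0.57, SE 0.061, adjusted p = 0.000246, edgeR). The cortical call was lost without the control of mouse 63 or 64 (adjusted p = 0.0519 to 0.0565), with log2 fold changes of 0.22 to 0.26.

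Nes (chromosome 3 from 87971078 to 87980451), which encodes the nestin of radial glia and progenitors, was the member that changed most in the cortex. It stood at 31.2, 34.6, 26.3 and 33.5 CPM in control cortices and at 20.2, 16.6, 21.1 and 23.2 CPM in Trrap-FBΔ cortices, with every mutant below every control (log2 fold change -0.63, SE 0.1, adjusted p = 0.00104, edgeR). The call held without any 1 library. In the striatum Nes stood at 39.1, 22.8, 34.3 and 33.3 CPM in controls and at 27.9, 24.03, 22.3 and 24.5 CPM in Trrap-FBΔ, where mouse 63 was the control inside the range of the mutants (log2 fold change -0.39, SE 0.14, adjusted p = 0.0541, edgeR). Without mouse 63 the striatal value was -0.53 with an adjusted p of 0.00213, and with the mouse as a random block it was -0.37 with an adjusted p of 0.0377 (limma-voom). Striatal Nes was also called with DESeq2 (adjusted p = 0.0226), with no filter (0.0282), with all 16 libraries in 1 fit (0.0315) and with thinned libraries (0.0472). Nes is also made by growing blood vessels. Of 14 markers of endothelial and mural cells, 9 were called lower in the cortex (64.3%), beside 17.6% of all genes. In the striatum 3 of 14 were called lower (21.4%), nearer to the 15.8% of all genes there. Their summed level was 561 to 664 CPM in control and 455 to 511 CPM in Trrap-FBΔ cortices. Their part in the fall of Nes was not tested.

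Vim (chromosome 2 from 13573927 to 13582826), the vimentin gene of radial glia and immature astrocytes, fell in the cortex. Its level was 53.4, 55.8, 46.8 and 51.6 CPM in controls and 43.1, 42.6, 42.1 and 44.3 CPM in Trrap-FBΔ cortices, which did not overlap (log2 fold change -0.27, SE 0.056, adjusted p = 0.00373, edgeR). The striata held 61.02, 55.7, 62.3 and 64.05 CPM in controls and 60.2, 60.3, 55.8 and 65.8 CPM in Trrap-FBΔ, and there the groups lay on top of each other (log2 fold change -0.01, SE 0.06, adjusted p = 0.917, edgeR). The difference between the tissues in the genotype effect was 0.26 and was not called (adjusted p = 0.19, edgeR). Endothelial, microglial and meningeal cells also make vimentin, and the microglial and vascular markers fell in the cortex as well, as given further on. Their part in the fall of Vim was not tested.

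**Figure D3:**
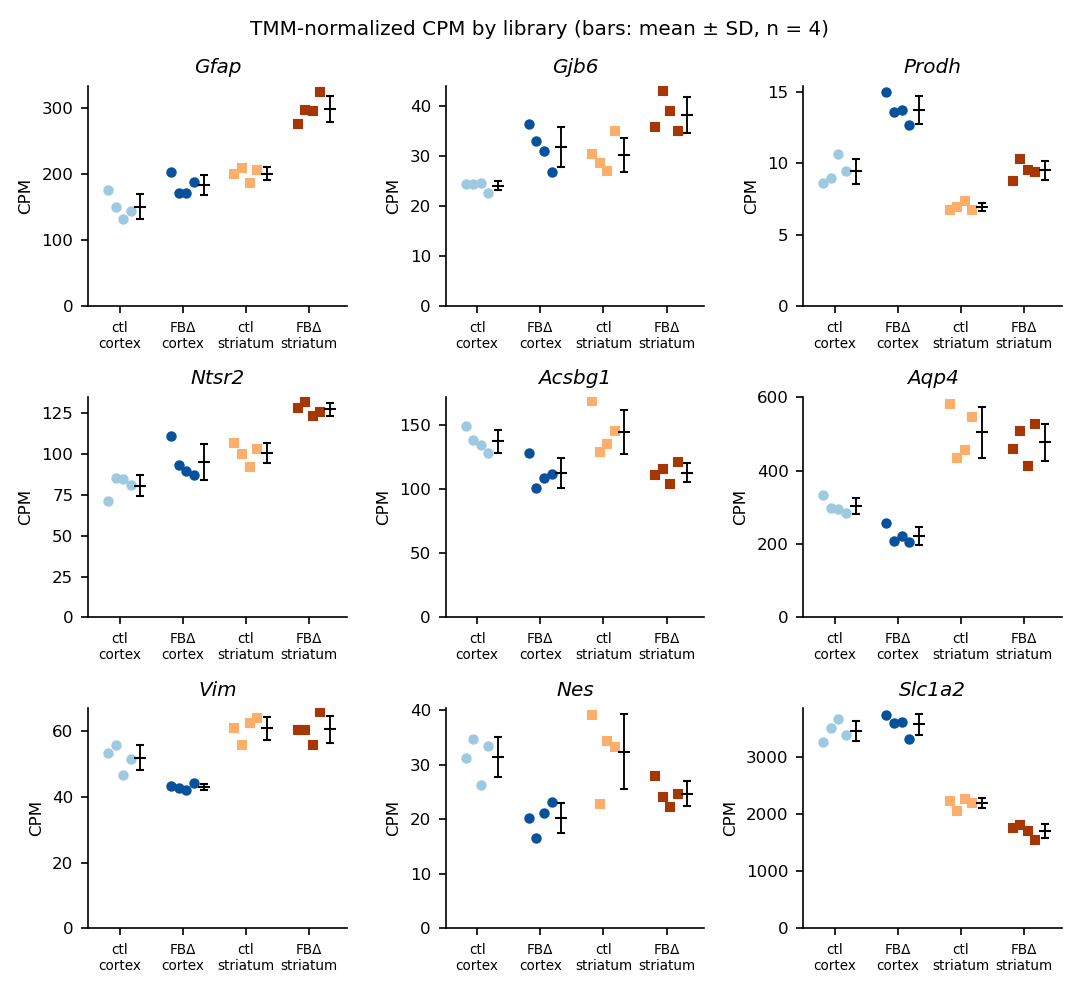
TMM-normalized CPM of 9 genes in each library, on linear axes that start at 0, with the mean ± SD of each group of 4 in black. Gfap, Gjb6, Prodh and Ntsr2 stood higher in the Trrap-FBΔ libraries (FBΔ) than in controls (ctl) in both tissues, Acsbg1 stood lower in both, Aqp4, Vim and Nes stood lower in the cortex, and Slc1a2 stood lower in the striatum.

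Among the 8 genes of water, ion and junction proteins, both connexin genes rose in both tissues, and the others did not share this. Gjb6 (chromosome 14 from 57123303 to 57133611), encoding connexin 30 of astrocyte gap junctions, stood at 24.6, 24.5, 24.6 and 22.7 CPM in control cortices and at 36.4, 32.98, 31.1 and 26.9 CPM in Trrap-FBΔ cortices. All mutants lay above all controls (log2 fold change 0.40, SE 0.084, adjusted p = 0.00371, edgeR). In the striatum its values were 30.5, 28.7, 27.03 and 35.00 CPM in controls and 35.8, 43.04, 38.98 and 35.1 CPM in Trrap-FBΔ, where the highest control came within 0.1 CPM of the lowest mutant (log2 fold change 0.33, SE 0.091, adjusted p = 0.0205, edgeR). The striatal call was lost without the control of mouse 64 or the mutant of mouse 59 or 60 (adjusted p = 0.0514 to 0.0593), and the cortical one held without any 1 library. Gja1 (chromosome 10 from 56377330 to 56402513), encoding connexin 43, had a mean of 243 ± 9.75 CPM in control and 278 ± 25.6 CPM in Trrap-FBΔ cortices (log2 fold change 0.19, SE 0.063, adjusted p = 0.0368, edgeR). The striatal means were 304 ± 22.3 and 356 ± 21.5 CPM (log2 fold change 0.23, SE 0.066, adjusted p = 0.0262, edgeR). The Gja1 groups overlapped in both tissues. Its cortical call was lost in 6 of 8 cases with 1 library left out, those of controls 58, 63 and 64 and mutants 57, 59 and 60 (adjusted p = 0.0614 to 0.101), and with sex as a covariate (adjusted p = 0.0676). Its striatal call was lost in 4 of 8 cases, those of control 64 and mutants 57, 59 and 60 (adjusted p = 0.0531 to 0.0784).

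Aqp4, the water channel of astrocyte end feet, went the other way in the cortex. It stood at 334, 297, 296 and 285 CPM in controls and at 258, 207, 222 and 204 CPM in Trrap-FBΔ cortices. The highest mutant lay below the lowest control (log2 fold change -0.44, SE 0.076, adjusted p = 0.00131, edgeR), and the call held without any 1 library. The striata held 582, 435, 455 and 546 CPM in controls and 460.4, 508, 414 and 528 CPM in Trrap-FBΔ, with groups that overlapped (log2 fold change -0.084, SE 0.11, adjusted p = 0.581, edgeR). Kcnj10, the inward rectifier potassium channel that lies beside Aqp4 in the end feet and is not one of the 32, also fell in the cortex, from 274 to 182 CPM (log2 fold change -0.59, SE 0.076, adjusted p = 0.000228, edgeR). The rest of this set passed the test in neither tissue. They were Atp1b2, a subunit of the sodium pump, Mlc1 and Hepacam, which form 1 membrane complex, Slc4a4, a bicarbonate transporter, and Cldn10, a claudin, with log2 fold changes between -0.076 (Slc4a4) and 0.11 (Mlc1) for cortices and between -0.12 (Cldn10) and 0.20 (Atp1b2) for striata.

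Uptake of transmitters is the best known service of astrocytes to synapses, and of its 4 genes only Slc1a2 was called. Slc1a2 (chromosome 2 from 102658659 to 102790784), also called GLT-1, stood at 3259, 3503, 3661 and 3378 CPM in control cortices and at 3733, 3591, 3611 and 3314 CPM in Trrap-FBΔ cortices, where the groups overlapped (log2 fold change 0.049, SE 0.074, adjusted p = 0.644, edgeR). In the striatum it stood at 2233, 2055, 2257 and 2189 CPM in controls and at 1755, 1812, 1695 and 1541 CPM in Trrap-FBΔ. Every mutant striatum lay below every control, with means of 2183 ± 90.2 and 1701 ± 116 CPM (log2 fold change -0.36, SE 0.07, adjusted p = 0.00394, edgeR), and the call held without any 1 library. Genes of excitatory neurons fell in the same striata, 6 of 9 (66.7%, beside 15.8% of all genes called lower) with a median of -0.67. Their summed level was 1082 to 1775 CPM in control and 732 to 1080 CPM in Trrap-FBΔ striata. In the cortex 2 of 9 of these neuronal genes fell (22.2%, beside 17.6%), with a median of -0.11. Their part in the fall of Slc1a2 was not tested. Slc1a3, the related transporter also called GLAST, stood at 702, 748, 799.5 and 759 CPM in control and 717, 668, 739 and 621 CPM in Trrap-FBΔ striata, which overlapped (log2 fold change -0.14, SE 0.07, adjusted p = 0.169, edgeR). Its cortical log2 fold change was 0.081 (adjusted p = 0.302). Glul gave 0.087 in the cortex and -0.063 in the striatum (adjusted p = 0.365 and 0.445). Slc6a11, the astrocyte GABA transporter GAT-3, gave -0.16 and 0.27 (adjusted p = 0.102 and 0.148), and the striatal value was 0.15 without mouse 63, in whose control striatum Slc6a11 was lowest. With the mouse as a random block the striatal value was 0.29 (adjusted p = 0.0492, limma-voom). The cortical value of Slc6a11 passed the test without the control of mouse 63 alone (-0.21, adjusted p = 0.0253).

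Of the 9 metabolic genes and other transporters, Prodh rose in both tissues and Acsbg1 and Ppp1r3c fell in both. Prodh (chromosome 16 from 18060357 to 18090203) stood at 8.64, 8.98, 10.7 and 9.47 CPM in control cortices and at 14.98, 13.6, 13.7 and 12.6 CPM in Trrap-FBΔ cortices, with no overlap (log2 fold change 0.54, SE 0.083, adjusted p = 0.000618, edgeR). Its striatal values were 6.73, 6.93, 7.38 and 6.74 CPM in controls and 8.73, 10.3, 9.54 and 9.37 CPM in Trrap-FBΔ, again with no overlap (log2 fold change 0.45, SE 0.076, adjusted p = 0.00218, edgeR). Prodh was thus the most strongly raised of the 32 genes in the cortex and, after Gfap, in the striatum, and both calls held without any 1 library. Prodh is not made by astrocytes alone, and its level was the lowest of the 32 per length.

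Acsbg1 (chromosome 9 from 54604877 to 54661870), an acyl-CoA synthetase of long fatty acids, stood at 149, 138, 134 and 128 CPM in control and 128, 100.5, 109 and 111 CPM in Trrap-FBΔ cortices, with mouse 57 just above the lowest control (log2 fold change -0.29, SE 0.069, adjusted p = 0.00807, edgeR). The striata held 168, 129, 135 and 146 CPM in controls and 111, 116, 104 and 121 CPM in Trrap-FBΔ, which did not overlap (log2 fold change -0.36, SE 0.081, adjusted p = 0.00822, edgeR). Both calls of Acsbg1 held without any 1 library. Ppp1r3c, which guides a phosphatase to glycogen, had striatal values of 41.3, 48.5, 41.9 and 40.03 CPM in controls and 35.1, 34.4, 34.3 and 35.9 CPM in Trrap-FBΔ. These groups did not overlap and the mutants lay close together (log2 fold change -0.30, SE 0.065, adjusted p = 0.00638, edgeR). In the cortex Ppp1r3c stood at 44.5, 37.9, 39.98 and 38.1 CPM and 40.2, 32.1, 31.97 and 30.9 CPM, with mouse 57 inside the control range (log2 fold change -0.25, SE 0.085, adjusted p = 0.0441, edgeR). This cortical call was lost in 6 of 8 cases with 1 library left out, those of controls 55, 63 and 64 and mutants 59, 60 and 61 (adjusted p = 0.0541 to 0.127), and under upper-quartile scaling (adjusted p = 0.0601).

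Gldc, the glycine-cleaving enzyme of astrocyte mitochondria, fell in the striatum only by the calls, from 17.1, 16.4, 20.5 and 15.9 CPM in controls to 15.1, 12.7, 14.8 and 13.6 CPM in Trrap-FBΔ. The groups did not overlap (log2 fold change -0.32, SE 0.09, adjusted p = 0.0227, edgeR), but the call was lost without control 64 or mutant 59 or 61 (adjusted p = 0.051 to 0.0639) and with sex as a covariate (adjusted p = 0.0957). The cortical log2 fold change of Gldc was -0.012 (adjusted p = 0.9), and the difference between tissues was not called (adjusted p = 0.238, edgeR). Aldh1l1, a folate enzyme widely used to mark astrocytes, stood at 67.04, 68.9, 64.4 and 63.8 CPM in control and 63.03, 55.2, 54.5 and 63.7 CPM in Trrap-FBΔ cortices. The highest mutant came within 0.1 CPM of the lowest control (log2 fold change -0.16, SE 0.054, adjusted p = 0.0423, edgeR), and the call was lost in 6 of 8 cases with 1 library left out, those of all 4 controls and mutants 59 and 60 (adjusted p = 0.05 to 0.159). It was lost as well under upper-quartile scaling (adjusted p = 0.0636), with no filter (0.0766), under the filter of 10 counts in each library (0.0514) and with all 16 libraries in 1 fit (0.0533). Its striatal log2 fold change was 0.0026 (adjusted p = 0.98). The glycolytic enzyme Aldoc, the lipid phosphatase Plpp3, the amino acid transporter Slc7a10 and the peptide transporter Slc15a2 were called in neither tissue, though Slc7a10 passed in the cortex without mutant 57 (-0.21, adjusted p = 0.0348) and Plpp3 without mutant 61 (0.16, adjusted p = 0.0252).

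Among receptors and signalling proteins, Ntsr2 (chromosome 12 from 16653382 to 16660227), a neurotensin receptor of astrocytes, rose in both tissues. It stood at 107, 100.3, 92.4 and 103 CPM in control and 128, 132, 123 and 126 CPM in Trrap-FBΔ striata, with a clear gap between the groups (log2 fold change 0.33, SE 0.052, adjusted p = 0.0013, edgeR). In the cortex the values were 71.3, 85.7, 84.7 and 81.2 CPM and 111, 93.1, 89.6 and 87.2 CPM, which did not overlap either (log2 fold change 0.24, SE 0.076, adjusted p = 0.0301, edgeR). The cortical call of Ntsr2 was lost without control 55 or 64 or mutant 57 or 59 (adjusted p = 0.0518 to 0.0723) and with sex as a covariate (adjusted p = 0.0503). Ndrg2, an intracellular protein abundant in astrocytes, had groups that did not overlap in either tissue, but was called in neither (log2 fold change 0.17 and 0.15, adjusted p = 0.0769 and 0.0802, edgeR), while DESeq2 called it in the striatum (adjusted p = 0.0324). Fgfr3, a fibroblast growth factor receptor of astrocytes and their precursors, gave 0.089 and 0.16, and S100b, a calcium-binding protein, gave -0.049 and -0.23, without a call. In the striatum Fgfr3 passed without control 58 (0.22, adjusted p = 0.0279) and S100b without control 64 (-0.3, adjusted p = 0.0463).

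Hes5 and Sox9 are the transcription factors of the set, Hes5 as a target of Notch in radial glia and Sox9 as a driver of the glial fate. Hes5 stood at 10.9, 10.8, 8.81 and 11.1 CPM in control and 9.70, 6.59, 8.47 and 8.48 CPM in Trrap-FBΔ cortices, and the control of mouse 63 lay inside the mutant range (log2 fold change -0.32, SE 0.11, adjusted p = 0.0446, edgeR). The call was lost in 6 of 8 cases with 1 library left out, those of controls 55, 58 and 64 and mutants 59, 60 and 61 (adjusted p = 0.0817 to 0.114). It was lost with sex as a covariate as well (adjusted p = 0.0877), with the mouse as a random block (0.0676), under upper-quartile scaling (0.056) and with thinned libraries (0.068). Striatal Hes5 gave -0.06 (adjusted p = 0.696). Sox9 stood at 22.3, 21.7, 21.2 and 23.6 CPM in control and 17.7, 19.1, 22.1 and 19.3 CPM in Trrap-FBΔ cortices and was not called (log2 fold change -0.18, SE 0.079, adjusted p = 0.101, edgeR), though it passed without the mutant of mouse 60 (-0.25, adjusted p = 0.0273). The 2 secreted proteins, Sparcl1 and the apolipoprotein Clu, lay near the threshold in the cortex with opposite signs. Sparcl1 gave -0.16 (adjusted p = 0.0588), with mutants all below controls, and Clu gave 0.16 (adjusted p = 0.0501). Both were called with DESeq2 (adjusted p = 0.00221 and 0.034), with limma-voom (0.0233 and 0.045) and under the filter of 10 counts in each library (0.0486 and 0.0379). Sparcl1 also passed with sex as a covariate (adjusted p = 0.0492) and without mutant 57 (adjusted p = 0.038). Clu also passed under upper-quartile scaling (adjusted p = 0.028), with thinned libraries (0.0429) and without control 58 (0.046).

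An interaction of genotype and tissue, fitted to the 16 libraries together, asked whether the effects in cortex and striatum were unequal. None of the 32 genes was called, beside 0.437% of all genes tested (85 of 19438), and 8 had an unadjusted p under 0.05 in edgeR's quasi-likelihood test, beside 2347 of the 19438 genes tested. Slc1a2 came closest, with a striatal effect lower than the cortical one by 0.41 on the log2 scale (SE 0.093, adjusted p = 0.0605). Slc1a2 was the 1 gene called with DESeq2 (adjusted p = 0.000309), with limma-voom (0.0323), with no filter on low counts (0.0356), with at least 10 counts in every library (0.0439) and without the cortex of mutant 61 (0.0468). With the mouse as a block, which limits the fit to the 7 mice that gave both tissues, 1 gene was called, and it was Slc6a11 (0.5, adjusted p = 0.0328 in edgeR, against 0.28 without the block). The other 6 genes with an unadjusted p under 0.05 were Aqp4 (0.36), Gfap (0.28), Vim (0.26), Slc1a3 (-0.22), Mlc1 (-0.15) and Gldc (-0.31), as log2 differences of the striatal from the cortical effect. The calls in 1 tissue alone are therefore not shown to be particular to that tissue.

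More of these genes differed between the regions than between the genotypes. In control mice 20 of 32 were called between striatum and cortex, 16 higher and 4 lower in the striatum, beside 40.4% of all genes tested (20.3% higher and 20.1% lower). Their median log2 fold change was 0.23, against 0.009 over all genes. In Trrap-FBΔ mice, none of which is among the controls, 26 of 32 were called, 20 higher and 6 lower, beside 54.7% of all genes (27.4% higher and 27.4% lower), with a median of 0.26 against 0.004. All 20 genes called in controls had the same sign in Trrap-FBΔ mice and 18 of them were called again, 14 higher and 4 lower. How often such a repeat occurs over all genes was not counted, so it is not shown to be particular to these genes. The 14 were Aqp4, Gfap, Gja1, Gjb6, S100b, Ndrg2, Fgfr3, Slc4a4, Slc6a11, Ntsr2, Clu, Plpp3, Slc7a10 and Vim. Aldh1l1, Atp1b2, Sparcl1, Hes5, Hepacam and Nes (higher) and Slc1a3 and Slc15a2 (lower) were called in Trrap-FBΔ mice only, which is no test of a difference between the sets. Mlc1 and Cldn10 were called in controls only, and Aldoc, Sox9, Acsbg1 and Ppp1r3c in neither set. Without the control striatum of mouse 63 the count in controls was 22, since Atp1b2 (0.44, adjusted p = 0.00484) and Sparcl1 (0.3, adjusted p = 0.0156) were added. In controls the call of Clu was lost without the cortex of mouse 55 or 63 or the striatum of 58 or 65 (adjusted p = 0.0692 to 0.0756) and that of Vim without the cortex of 63 or the striatum of 65 (adjusted p = 0.053 to 0.0593). In Trrap-FBΔ mice Gjb6 was lost without the cortex of mouse 60 or 61 or the striatum of 59 or 60, Nes without either tissue of 57 or 59 or the striatum of 61, and Hepacam without the cortex of 60. The regional tests above did not pair the tissues of a mouse. A fit that paired them kept only mice with both tissues, and so left out the control cortex of mouse 55 and the control striatum of 65. The paired fit removed Clu (adjusted p = 0.0742) and added Hes5 and Ppp1r3c in controls, and it added Sox9 and Cldn10 in Trrap-FBΔ mice. In controls the pairing and the loss of these libraries cannot be told apart. In Trrap-FBΔ mice the call of Slc1a3 was lost under upper-quartile scaling (adjusted p = 0.0583), that of Hepacam with no filter (0.0558) and that of Nes with all 16 libraries in 1 fit (0.105), while upper-quartile scaling added Sox9, Mlc1 and Cldn10. In controls upper-quartile scaling added Aldoc, Atp1b2 and Hepacam.

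The largest regional difference was that of Slc6a11 (chromosome 6 from 114131241 to 114249952), the GABA transporter. It stood at 303, 333, 260.5 and 290.1 CPM in control cortices and at 752, 469, 583 and 717 CPM in control striata, with mouse 63 lowest in the striatum. The groups lay far apart (log2 fold change 1.09, SE 0.14, adjusted p = 0.000184, edgeR), and in Trrap-FBΔ mice the difference was 1.51 (adjusted p = 5.95e-09). S100b followed in controls, with 56.98, 57.6, 63.97 and 55.1 CPM in cortices and 132, 109, 94.5 and 115 CPM in striata (log2 fold change 0.94, SE 0.097, adjusted p = 4.27e-05, edgeR). S100b is also made by oligodendrocytes, whose 11 marker genes were all called higher in the striatum, with a summed level of 1878 to 3355 CPM in control cortices and 3337 to 9944 CPM in control striata, and their part in it was not tested. Aqp4 gave 0.73 and 1.09 in control and Trrap-FBΔ mice, Slc4a4 gave 0.67 and 0.78, and Gfap gave 0.41 and 0.69, all higher in the striatum.

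The 4 genes that were lower in the striatum in both sets of mice were Slc1a2, Glul, Prodh and Gldc. Slc1a2 gave -0.66 in controls and -1.08 in Trrap-FBΔ mice (adjusted p = 5.74e-05 and 1.62e-07, edgeR), which is the difference that the interaction compares. Glul stood at 789, 860.1, 853 and 789.6 CPM in control cortices and at 556, 598, 585 and 571 CPM in control striata (log2 fold change -0.51, SE 0.058, adjusted p = 7.99e-05, edgeR). Prodh gave -0.45 and -0.55, and Gldc gave -0.37 and -0.68. The transcripts of the glutamate transporter Slc1a2 and of Glul were thus higher in the cortex and that of the GABA transporter Slc6a11 higher in the striatum. The second glutamate transporter, Slc1a3, did not separate the regions in controls (751, 796, 708 and 754 CPM in cortices and 702, 748, 799.5 and 759 CPM in striata, which overlapped).

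Genes of other cells moved with the region too, where 20.3% of all genes were called higher and 20.1% lower in the control striatum. All 12 ependymal genes, all 11 oligodendrocyte genes and all 8 genes of oligodendrocyte precursors were called higher in the control striatum, with medians of 1.32, 1.24 and 0.63, and all 9 genes of excitatory neurons were lower (-1.97). Ependymal cells line the ventricle beside the striatum and also make several of the 32 genes, and their summed level was 27.99 to 31.4 CPM in control cortices and 64.1 to 73.9 CPM in control striata. Among choroid plexus genes, 5 of 8 were called higher, while their summed level overlapped, with 161 to 487 CPM in control cortices and 142 to 586 CPM in control striata. The part of these cells in the regional difference of the 32 genes was not tested.

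**Figure D4:**
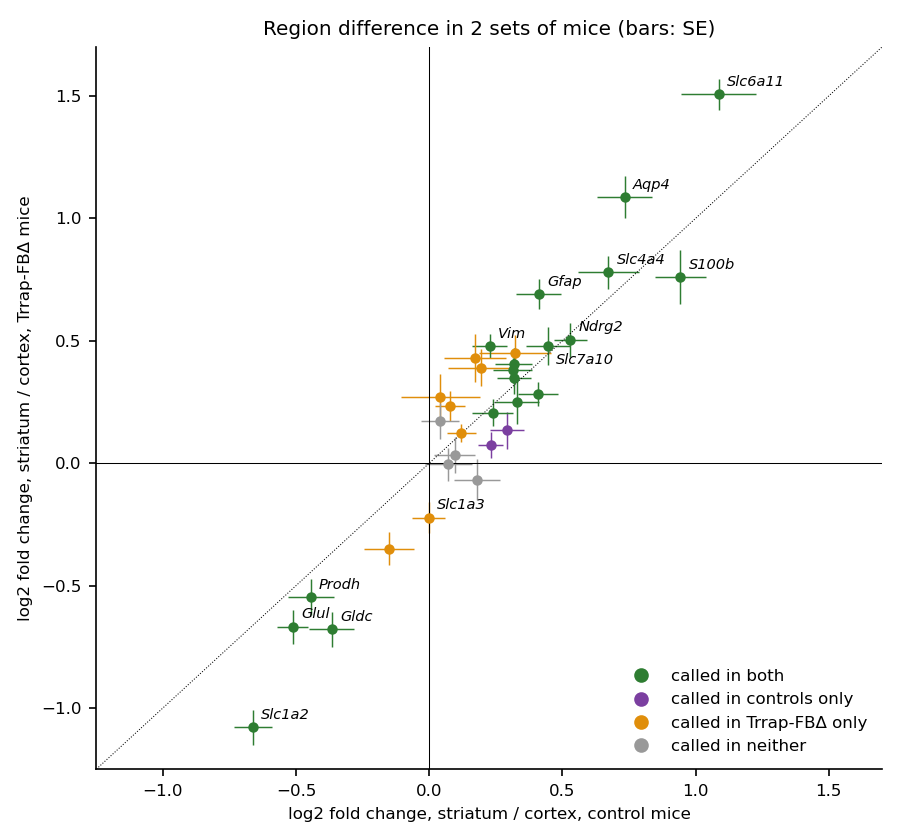
Log2 fold change of striatum over cortex for each of the 32 genes in control mice (horizontal axis) and in Trrap-FBΔ mice (vertical axis), with bars for 1 SE and a dotted line where both are equal. Slc6a11, Aqp4, S100b and Slc4a4 lie at the upper right, Slc1a2, Glul, Prodh and Gldc at the lower left, and 18 genes were called with the same sign in both sets.

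Promoter sequences are shown for 4 members, since the study dealt with the transcription factor Sp1, which binds GC boxes. They are Gfap and Prodh, the most strongly raised genes, Nes, the most strongly lowered, and Slc6a11, which differed most between regions. Each line holds the 250 bases before the RefSeq start of the gene, read 5′ to 3′ along its strand in GRCm38.p6, and capitals mark the GC box GGGCGG on either strand, CCGCCC where it is read on the other.
Gfap (chr11:102897201-102897450, minus strand): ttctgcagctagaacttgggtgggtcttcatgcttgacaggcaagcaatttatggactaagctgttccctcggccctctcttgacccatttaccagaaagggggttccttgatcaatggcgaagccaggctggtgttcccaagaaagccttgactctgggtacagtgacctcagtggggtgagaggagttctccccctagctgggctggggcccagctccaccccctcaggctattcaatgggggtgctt
Prodh (chr16:18089191-18089440, minus strand): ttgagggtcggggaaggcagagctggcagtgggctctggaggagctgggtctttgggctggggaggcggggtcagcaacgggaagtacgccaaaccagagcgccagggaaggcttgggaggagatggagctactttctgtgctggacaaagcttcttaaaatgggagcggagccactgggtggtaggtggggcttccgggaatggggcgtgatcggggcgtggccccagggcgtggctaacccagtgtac
Nes (chr3:87970843-87971092, plus strand): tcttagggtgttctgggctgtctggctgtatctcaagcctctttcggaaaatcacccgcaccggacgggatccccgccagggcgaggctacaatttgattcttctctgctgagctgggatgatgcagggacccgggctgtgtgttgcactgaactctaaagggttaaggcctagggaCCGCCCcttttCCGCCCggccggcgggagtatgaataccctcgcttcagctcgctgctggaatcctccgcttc
Slc6a11 (chr6:114130991-114131240, plus strand): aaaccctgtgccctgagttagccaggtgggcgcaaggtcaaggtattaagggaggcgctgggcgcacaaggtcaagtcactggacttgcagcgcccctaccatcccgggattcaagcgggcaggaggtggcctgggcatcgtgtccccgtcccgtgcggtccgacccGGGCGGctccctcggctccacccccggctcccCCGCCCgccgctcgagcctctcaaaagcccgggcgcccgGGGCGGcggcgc

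The windows of Gfap and Prodh held no GC box, that of Nes held 2, and that of Slc6a11 held 3 in the bases shown and 4 up to 50 bases after the start. RefSeq windows of 250 bases before to 50 after the start were at hand for 27 of the 32 members. A GC box was held by 14 of the 27 (51.9%), beside 38.2% of all 27025 genes with a window, tested or not. None of the 7 members called in both tissues held one, and 11 of the 14 members with a window that were called in neither tissue did. Among members with a window called in just the cortex or just the striatum, Aldh1l1, Nes and Gldc held one, and Hes5, Vim and Slc1a2 did not. A link between GC boxes and calls was not tested. These counts were made after the calls were known. The letters were only looked for in these windows, and no binding was measured in these files.

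Other genes of the same biology were read from lists that hold none of the 32. Each count of called genes can be read against the shares over all genes tested, which were 17.6% lower and 15.7% higher in the cortex and 15.8% and 14.4% in the striatum, and no list was tested as a set. Genes are named for the largest changes among those called with a mean of at least 1 CPM. Among 40 other astrocyte genes, 7 were higher and 7 lower in the cortex (17.5% each, median 0.046), and again 7 and 7 in the striatum (median 0.0028). The cortical genes named by this rule were Kcnj10 (-0.59, adjusted p = 0.000228), Paqr6 (0.58, adjusted p = 0.0018), a receptor of the progestin family, and Mt2 (0.52, adjusted p = 0.000382), a metallothionein. In the striatum they were Etnppl (1.65, adjusted p = 0.00538), a lyase of phosphoethanolamine, Paqr6 (0.78, adjusted p = 0.00223) and Dio2 (-0.75, adjusted p = 0.000657), the enzyme with which astrocytes activate thyroid hormone. Etnppl was also called higher in the cortex (1.81, adjusted p = 0.0138) but fell short of 1 CPM there, and in the striatum it was low in both groups, at 0.669 and 2.17 CPM. Here and for the lists that follow, values are log2 fold changes and adjusted p of the edgeR test.

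Of 20 radial glia and progenitor genes beyond Nes and Vim, 6 fell (30.0%) and 1 rose (5.0%) in the cortex, beside 17.6% and 15.7% of all genes, with a median of -0.12. In the striatum 5 fell (25.0%) and none rose, beside 15.8% and 14.4%, with a median of -0.072. The largest falls were those of Fabp7 (-0.72, adjusted p = 0.000589), the brain fatty acid-binding protein of radial glia, and Ccnd2 (-0.60, adjusted p = 8.22e-06), a cyclin of dividing progenitors, in the cortex. Striatal falls were led by Ccnd2 (-0.90, adjusted p = 0.000397), Fabp7 (-0.61, adjusted p = 0.0026) and Ptprz1 (-0.54, adjusted p = 0.000403), a receptor phosphatase of radial glia and oligodendrocyte precursors. Fam107a (0.70, adjusted p = 0.0166), a marker of outer radial glia and of mature astrocytes, rose in the cortex with overlapping groups. The summed level of the 20 genes was 1603 to 1933 CPM in control and 1405 to 1489 CPM in Trrap-FBΔ cortices and 2169 to 2218 and 1705 to 1791 CPM in the striata, with no overlap in either tissue. Abundant genes weigh most in these sums, which do not speak for each gene of the list. In the striatum the control and Trrap-FBΔ means were 955 and 657 CPM for Ptprz1, 346 and 228 CPM for Fabp7, and 104 and 55.7 CPM for Ccnd2. In the cortex they were 219 and 133 CPM for Fabp7 and 168.5 and 110.6 CPM for Ccnd2. Proliferation genes fell alongside, 11 of 13 (84.6%) in cortical and 12 of 13 (92.3%) in striatal tissue (medians -0.62 and -0.73). So did 7 of 8 (87.5%) and 3 of 8 (37.5%) genes of oligodendrocyte precursors, among them Pdgfra (-0.43 and -0.50). Over all genes, 17.6% fell in the cortex and 15.8% in the striatum. These precursors also express Fabp7 and Ptprz1. Their part in the falls was not tested.

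Genes of reactive astrocytes, which injury or inflammation turns on together with Gfap, were called in both directions. Of 31 tested, 3 rose (9.68%) and 6 fell (19.4%) in the cortex (median 0.038), beside 15.7% and 17.6% of all genes. In the striatum 8 rose (25.8%) and 7 fell (22.6%), beside 14.4% and 15.8% (median -0.011). The summed level of the list was 235.4 to 265.5 CPM in control and 230.1 to 244.2 CPM in Trrap-FBΔ cortices, which overlapped. It was 269.1 to 292.1 CPM in control and 292.9 to 306.6 CPM in Trrap-FBΔ striata, which did not. S100a10 (-1.20, adjusted p = 3.31e-05), an annexin partner, and Cd44 (-1.08, adjusted p = 0.000126), a hyaluronan receptor, fell in the cortex, where H2-T23 (0.75, adjusted p = 0.0216), an antigen-presenting protein, rose from a level near 1 CPM. In the striatum S100a10 (-1.15, adjusted p = 0.00203) and Ptgs2 (-0.75, adjusted p = 0.0455), the prostaglandin synthase, fell, and C3 (0.77, adjusted p = 0.00191), the complement component, rose. S100a10, Cd44 and Ptgs2 are also made by neurons or vessels, and these lists were not tested against each other.

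Gliogenic genes encode the signals and factors that drive precursors to the astrocyte fate. Of 29 tested in the cortex, 9 fell (31.0%) and 3 rose (10.3%), beside 17.6% and 15.7% of all genes (median -0.084). Of 30 tested in the striatum, 10 fell (33.3%) and 1 rose (3.33%), beside 15.8% and 14.4% (median -0.086). Ctf1 (0.67, adjusted p = 0.00201), the cytokine cardiotrophin 1, rose in the cortex and rose in the striatum as well (1.05, adjusted p = 0.000625). Jag1 (-0.47, adjusted p = 0.00211), a ligand of Notch, and Hey2 (-0.34, adjusted p = 0.0165), a target of Notch, fell in the cortex. Hes5 was called lower there too, but its call was lost in 6 of 8 cases with 1 library left out. Notch genes were not tested as a set. Nfib (-0.37, adjusted p = 0.00182) and Zbtb20 (-0.41, adjusted p = 0.0312), both transcription factors of gliogenesis, fell in the striatum, and neurons express both of them too.

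The glutamate, glutamine and GABA cycle holds 18 genes besides the 4 members, and 1 rose (5.56%) and 5 fell (27.8%) in the cortex and 3 rose (16.7%) and 6 fell (33.3%) in the striatum (medians 0.013 and -0.014). The glutamine transporter Slc38a5 (-0.64, adjusted p = 0.000308) fell in the cortex and fell in the striatum (-0.62, adjusted p = 0.0105). Slc38a2 (-0.38, adjusted p = 0.000464), another glutamine transporter, and Slc17a6 (-0.62, adjusted p = 0.00356), a vesicular glutamate transporter of neurons, fell in the cortex. Its relative Slc17a7 (-0.88, adjusted p = 0.0113) fell in the striatum beside Slc1a2, with overlapping groups, and Slc6a13 (0.44, adjusted p = 0.0143), the GABA transporter of meninges and vessels, rose. Of the 12 secreted proteins by which astrocytes shape synapses, 2 rose (16.7%) and 6 fell (50%) in the cortex and 4 fell (33.3%) in the striatum (medians -0.25 and 0.0094). Chrdl1 (-0.68, adjusted p = 0.000148) and Vcan (-0.57, adjusted p = 7.11e-05) led the cortical falls, Thbs4 (0.72, adjusted p = 0.000521) led the rises, and Chrdl1 (-0.71), Vcan (-0.55) and Gpc4 (-0.48) led the striatal falls. Vcan and other proteoglycans of this list are also made by oligodendrocyte precursors.

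**Figure D5:**
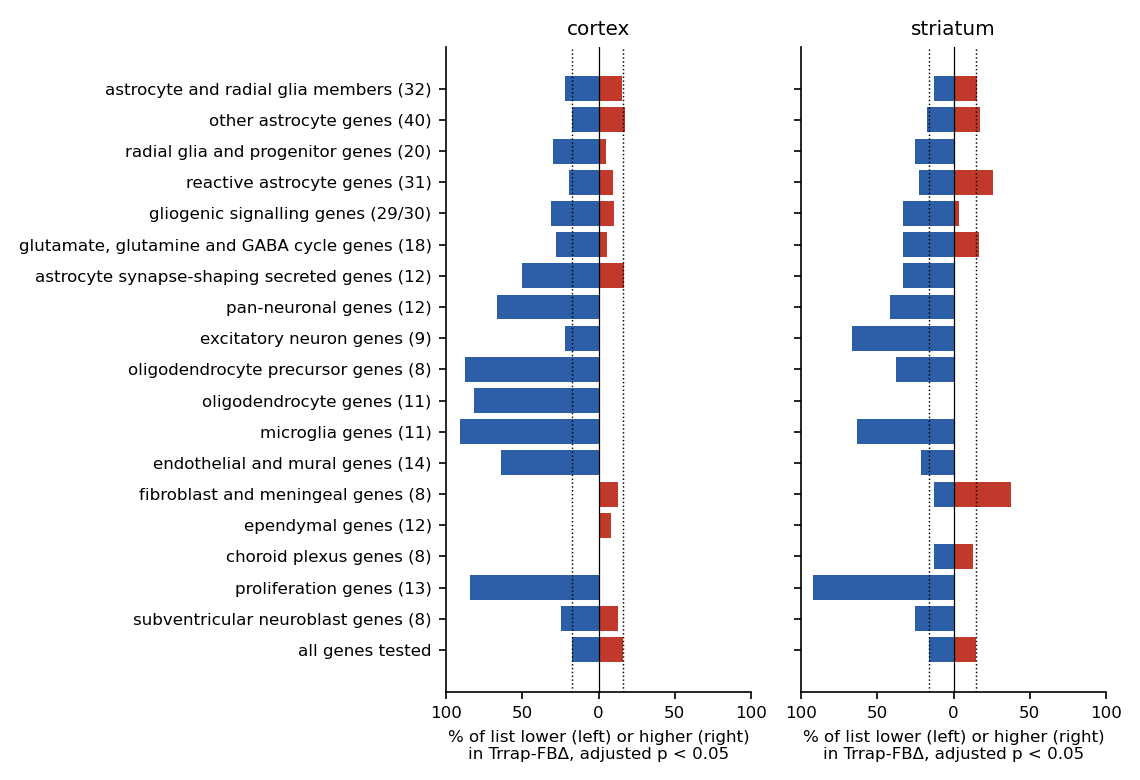
Share of each gene list called lower (blue, to the left) or higher (red, to the right) in Trrap-FBΔ than in controls, in the cortex and the striatum, with the number of genes tested in brackets (cortex/striatum where they differ). Dotted lines mark the shares over all genes tested, 17.6% lower and 15.7% higher in the cortex and 15.8% and 14.4% in the striatum. The 32 astrocyte and radial glia genes lie close to these lines, while most microglia and proliferation genes were lower in both tissues.

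Genes of several other cell types were called in 1 direction. In the cortex 10 of 11 microglia genes (90.9%), 9 of 11 oligodendrocyte genes (81.8%) and 7 of 8 genes of oligodendrocyte precursors (87.5%) fell. So did 9 of 14 endothelial and mural genes (64.3%), 8 of 12 pan-neuronal genes (66.7%) and 2 of 9 genes of excitatory neurons (22.2%). None of these lists held a gene called higher there, and 17.6% of all genes were lower and 15.7% higher. In the striatum the counts of lower genes were 7, 0, 3, 3, 5 and 6 in the same order, with none higher. These were 63.6%, 0%, 37.5%, 21.4%, 41.7% and 66.7% of their lists, beside 15.8% of all genes. The excitatory share in the cortex and the endothelial share in the striatum were near those of all genes. Summed levels in control and Trrap-FBΔ cortices were 410.2 to 460.5 and 297 to 381 CPM for microglia. They were 1878 to 3355 and 1395 to 2167 CPM for oligodendrocytes, which overlapped. For the 12 pan-neuronal genes they were 9137 to 9774 and 6883 to 7286 CPM. Among these 12, the cortical means were 1570 and 763 CPM for Stmn2 and 707.5 and 289.9 CPM for Tubb3. The sums of the 9 genes of excitatory neurons overlapped, with 3844 to 4642 and 3723 to 4134 CPM. Ependymal genes showed few calls, with 1 of 12 higher in the cortex and none called in the striatum. Of 8 choroid plexus genes, none was called in the cortex, and 1 was higher and 1 lower in the striatum. Of 8 fibroblast and meningeal genes, 1 was higher in the cortex (12.5%, beside 15.7% of all genes). In the striatum 3 of them were higher (37.5%) and 1 lower (12.5%), beside 14.4% and 15.8% of all genes. Of 8 genes of subventricular neuroblasts, 2 fell (25.0%) and 1 rose (12.5%) in the cortex and 2 fell (25.0%) in the striatum. Dcx stands in the neuroblast and the pan-neuronal lists. All values are relative to the TMM-scaled library size, and the part of the other cell types in the calls of the 32 genes was not tested.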

How the data were processed

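RNA-seq libraries of polyadenylated, strand-specific RNA were made by the authors and read single-end. Reads were aligned to GRCm38 with STAR 2.5.4b, and the authors deposited raw counts of uniquely mapped reads per Ensembl 92 gene from featureCounts 1.5.0 in its reverse-stranded mode, without normalization or a filter. Symbols, positions and exon lengths came from the GENCODE annotation of the same build (53620 of 53801 identifiers had a symbol). Groups, tissues, sex and mouse numbers came from the labels.

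Counts were tested in R 4.3.3 with edgeR 4.0.16 (filterByExpr, TMM, glmQLFit and glmQLFTest, Benjamini-Hochberg over all genes tested, adjusted p under 0.05), within the 8 libraries of each comparison, and over all 16 for the interaction. CPM per kb used the union of exons. The members and lists were chosen with earlier results of these data known. All 32 members were described, Trrap, and from each other list the called genes with the 3 largest changes per tissue among those with a mean of at least 1 CPM. Genes named for being shared by cell types were taken from general knowledge. Lists were described by counts and medians, without a set test.

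Alternatives were DESeq2 size factors, upper-quartile scaling, no filter or at least 10 counts in every library, DESeq2 1.42.0, limma-voom (limma 3.58.1), a test against a fold change of 1.2, all 16 libraries in 1 fit, sex as a covariate, the mouse as a block, thinning to the smallest library, and each library left out. The scripts were tested on simulated data. Both tissues with the same mouse number came from 1 animal. Their deviations from the group means correlated with r of 0.0785 to 0.482 in 7 such pairs (median 0.315, 6 over 0.1). In 25 pairs of different mice r was -0.4 to 0.192 (median -0.0686, 7 over 0.1), so the ranges overlapped. No 2 libraries of the same group were duplicates (chi-square per degree of freedom 7.56 to 40.4 in 24 pairs). Pairs across groups were not compared in this way.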

Additional observations from a re-analysis of the deposited data

Results flagged for a closer look

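In groups of 4 libraries, the highest or lowest value of a gene stood apart from the other 3 by Dixon's criterion in 7 of 128 cases, where about 1 in 20 is given by chance. Mouse 57 accounted for 3 of them in the Trrap-FBΔ cortex, with Aldoc at 449 CPM (361.6 to 367.0 in the other mice), Ndrg2 at 499 CPM (398 to 409) and Ppp1r3c at 40.2 CPM (30.9 to 32.1). Hes5 was low in the control cortex of mouse 63, at 8.81 CPM (10.8 to 11.1), and in the control striatum of mouse 65, at 9.27 CPM (12.3 to 12.8). Gjb6 was low in the control cortex of mouse 64, at 22.7 CPM (24.5 to 24.6), and Slc15a2 was high in the control cortex of mouse 55, at 39.2 CPM (31.9 to 32.6).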

How the results depend on the processing

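Of 3136 repeats of single genes under the alternatives, 2973 stayed on their side of the threshold, 112 lost a call, 51 gained one and none changed sign among called values. Against a fold change of 1.2, 2 of the 32 genes were called in the cortex, 1 in the striatum, 9 between regions in controls and 15 in Trrap-FBΔ mice, and over all genes 1381, 1364, 3438 and 5572, with 1 gene for the interaction. With 1 library left out, the cortical count was 6 to 12, the striatal 6 to 10, the regional ones 18 to 22 and 24 to 26, and the interaction gave 0 to 1 of the 32 and 18 to 151 of all genes, lowest without the striatum of mutant 61 and highest without that of control 65. The interaction gave 1 of the 32 with no filter, with at least 10 counts in every library, with DESeq2 and with limma-voom, and 195 of all genes with no filter and 413 with DESeq2. With the mouse as a replicate block it gave 1 of the 32 and 216 of all genes. Under the random block the other genotype counts were 11 and 11, and under the fixed block the regional counts were 21 and 28. Upper-quartile scaling called 6318 genes higher and 4126 lower between regions in Trrap-FBΔ mice, in place of 5166 and 5163, and 4451 and 2974 in controls, in place of 3710 and 3670. The causes were not tested. No member had under 214 counts in any library.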
